A study of Mus musculus and Homo sapiens with 28 samples.

Results

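The comparison described here is that of 786-O cells given a CHK1 inhibitor with untreated 786-O cells. It holds 4 of the 28 RNA-seq libraries of a study of ATR inhibition and loss of the histone methyltransferase SETD2 in renal carcinoma, and its members were chosen by the treatment labels alone. The other libraries come from mouse tumours and are not used here. 786-O is an established human line of clear cell renal carcinoma that lacks functional VHL, the ubiquitin ligase that degrades hypoxia-inducible factors. The treated group is 786-O parental cells, labelled WT, that received LY2606368 at 25 nM for 48 h (n = 2), and its counterpart is the same parental cells left untreated (n = 2). Each group has 1 library from each of 2 separate experiments. The treatment protocol gives the compound another code, LY2603618, and nothing in the sources used here settles which name is right. A vehicle is not mentioned, so the solvent cannot be told apart from the compound. Both groups are 1 cell line, and whether the experiments began from separate thaws of it is not given in the sources used here.

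CHK1, encoded by CHEK1, is the kinase that ATR switches on when DNA replication forks stall or single-stranded DNA is exposed. It holds back origin firing and, by inactivating CDC25 phosphatases, keeps cyclin-dependent kinases low until replication is complete. Cells whose CHK1 is blocked during replication are known to fire extra origins, to break forks and to enter mitosis with unreplicated DNA. DNA that leaks into the cytosol from such cells can be sensed by cGAS, which signals through STING to interferon genes, and this link is the one that the study's title names.

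The deposited values are variance-stabilised expression values on the log2 scale, from which whole reads could be recovered. Libraries held 21447859 and 20834400 reads in treated cells, against 23956007 and 23492424 reads in untreated cells. Reads fell on 24594 and 23297 gene symbols in treated cells and on 22158 and 22326 in untreated cells. Mitochondrial transcripts took 2.06% and 1.28% of reads in treated cells, against 1.61% and 1.39% in untreated cells. Of the markers set for the line, PAX8, a transcription factor of the nephron, had 5979 and 7311 normalised reads in treated cells, against 8062 and 7465 in untreated cells. VIM (vimentin), KRT8, KRT18 and EPAS1, which encodes HIF-2 alpha, were also present in each library. CA9, a carbonic anhydrase that marks many clear cell tumours, was nearly absent, with 4.43 and 2.29 normalised reads in treated cells and 2.91 and 6.74 in untreated cells.

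CHK1 inhibition went with a broad change of expression in both directions. Of 29353 genes with reads, 2069 (7.05%) were higher and 1809 (6.16%) lower in treated cells (limma, Benjamini-Hochberg adjusted p under 0.05), so 13.2% passed. At least a 2-fold change was reached by 947 of the higher and 762 of the lower genes, and a 4-fold change by 129 and 67. The share of genes that passed depended on the level: it was 30.5% among the 10316 genes whose mean log2 value was at least 7 (15.5% higher, 15% lower), 33.9% among the 4971 genes at 10 or more (19.2% higher, 14.7% lower) and 35.2% among the 437 genes at 13 or more (24.9% higher, 10.3% lower). Lists of well-expressed genes are best read against these shares. With the experiment as a block in the model, 2732 genes (9.31%) were higher and 2850 (9.71%) lower, 19% of all tested. With a minimum mean of 5, which kept 12731 genes, 3016 (23.7%) were higher and 3210 (25.2%) lower, 48.9% in all. On the recovered reads limma voom called 2887 of 14639 genes (19.7%) higher and 3625 (24.8%) lower, 44.5% in all.

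These counts rest on 2 libraries a group. Without the first treated library limma called 2921 genes higher and 729 lower, and without the second 3820 and 751. It called 0 genes without the first untreated library and 0 without the second, with 7475 and 7039 genes at an unadjusted p under 0.05. The p-values speak only of the variation between these libraries, which may be technical. Every count of genes given below shares these limits.

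The response was similar in the 2 experiments, which share no library. For the 10316 genes whose mean reached 7, the log2 differences of experiment 2 and experiment 1 had a Pearson r of 0.945 and a Spearman rho of 0.938, given as a description across genes of 2 experiments. Of these genes 89.5% had the same sign in both. The slope of experiment 2 on experiment 1 was 1.08, and the SD of the log2 differences was 0.644 in experiment 1 and 0.737 in experiment 2.

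**Figure D1:**
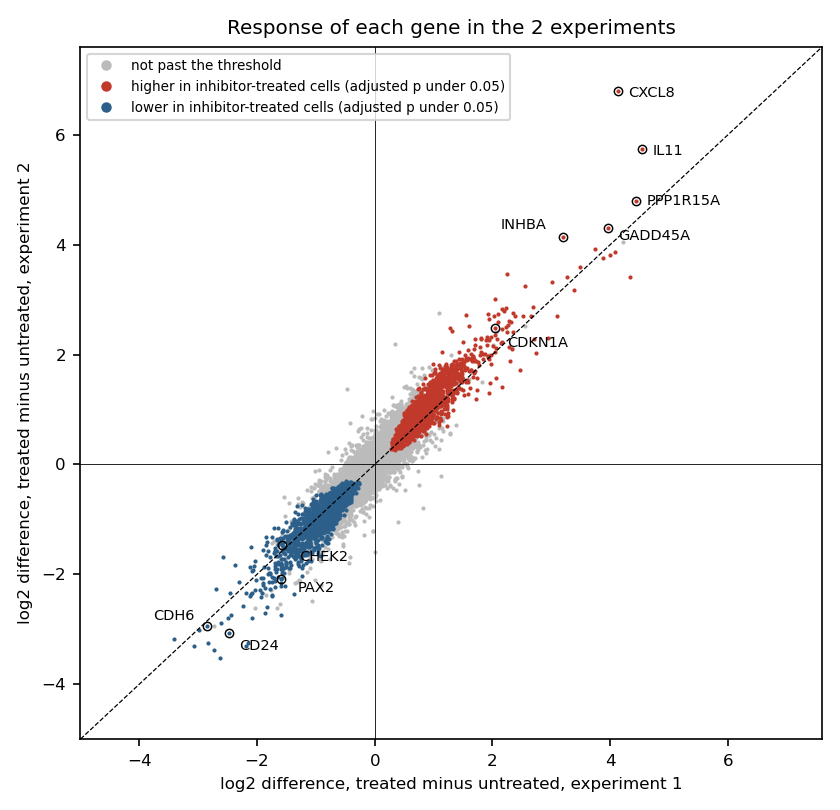
Each point is a gene with a mean log2 value of at least 7, with its log2 difference (treated minus untreated) in experiment 1 on the x axis and in experiment 2 on the y axis; the dashed line marks equal differences and named genes are ringed. Red points are genes higher and blue points genes lower in treated cells at an adjusted p under 0.05, and the points follow the dashed line (r = 0.945), with CXCL8 (4.13 and 6.80) above it.

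CHEK1 itself, which encodes the kinase that the compound inhibits, was slightly lower in treated cells. It had 1005 and 970 normalised reads in treated cells, against 1314 and 1297 in untreated cells, and fell by 0.40 on the log2 scale (SE 0.07, limma adjusted p 0.0461). A transcript level does not show whether the kinase was blocked. Of the 19 measured genes of the ATR-CHK1 checkpoint 2 were higher and 4 lower, a share close to the 30.5% of genes at a similar level, and the median log2 difference was -0.18 (-0.01 over all genes whose mean reached 7).

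The clearest member of that pathway was CHEK2, which encodes the related kinase that ATM activates at DNA breaks. It had 131 and 132 normalised reads in treated cells, against 410 and 381 in untreated cells, and fell by 1.52 (SE 0.10, limma adjusted p 0.0232). CLSPN, claspin, the adaptor through which ATR phosphorylates CHK1, had 1136 and 1166 in treated cells, against 1924 and 2171 in untreated cells, and fell by 0.82. RAD17, which loads the 9-1-1 clamp, fell by 0.53. In the other direction, CDC25A, the phosphatase whose protein CHK1 marks for destruction, had 1729 and 1878 in treated cells, against 1156 and 1037 in untreated cells, and rose by 0.71 (SE 0.10, limma adjusted p 0.0322). TIPIN, a partner of TIMELESS at the fork, rose by 0.73. In each of these 6 genes, named because they passed, the treated libraries did not overlap the untreated ones. The same held for 15384 of the 29353 genes tested, so it adds no support.

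ATR and WEE1 did not pass. ATR had 1963 and 2471 normalised reads in treated cells, against 1776 and 1525 in untreated cells (log2 difference 0.42, limma adjusted p 0.180). WEE1, the kinase that restrains CDK1 beside CHK1, had 928 and 893 in treated cells, against 1059 and 1004 in untreated cells (-0.18, limma adjusted p 0.224). SETD2, the methyltransferase that the study turns on, had 2776 and 2820 in treated cells, against 3021 and 3025 in untreated cells (-0.11, limma adjusted p 0.308). Among 18 measured genes of histone H3 lysine 36 methylation, 1 was higher and 4 were lower, again near the share of all genes at this level. The 4 were NSD1, a writer of that mark (-0.72), the demethylase KDM4B (-0.65), and PSIP1 and MSH6 (-0.74 and -0.72), proteins that read it.

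**Figure D2:**
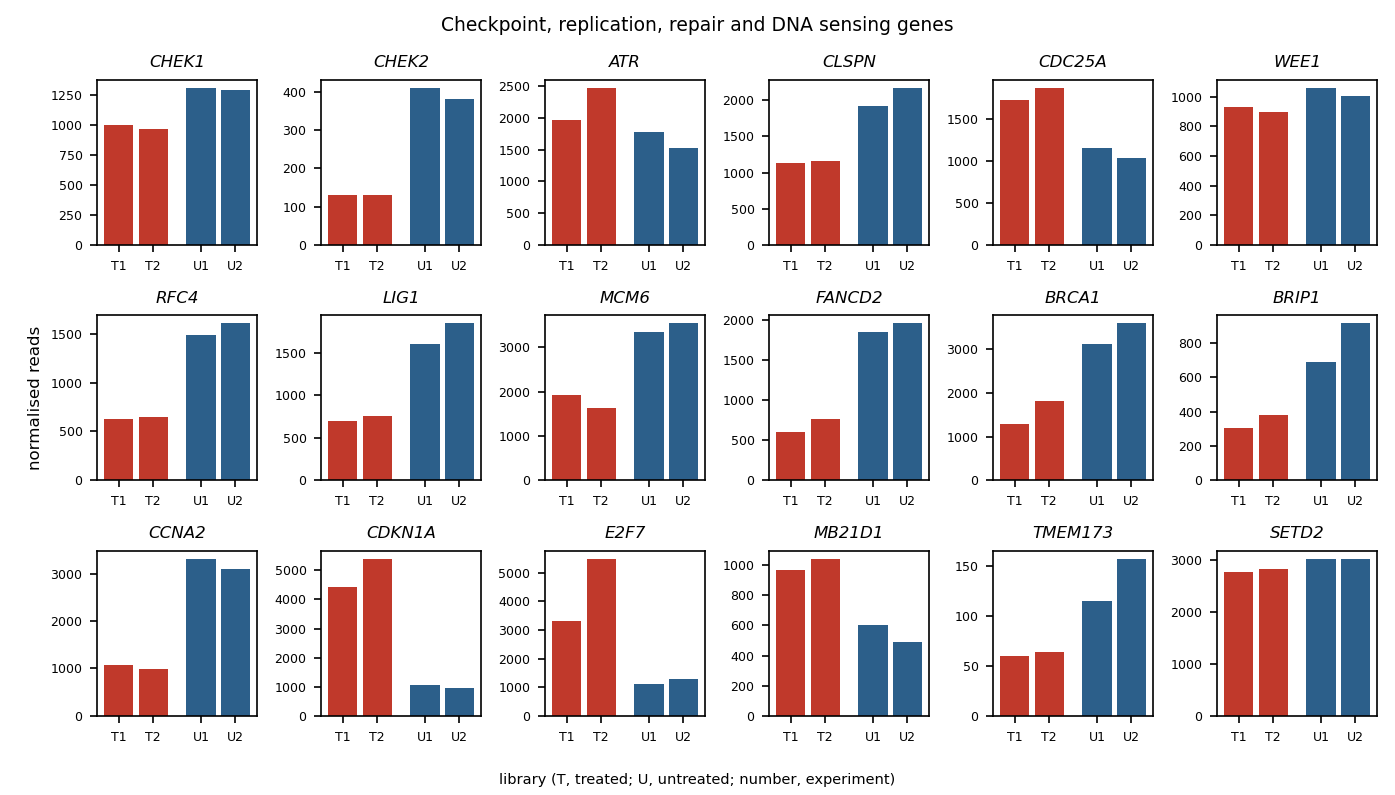
Bars give normalised reads per library for 18 genes of the checkpoint, replication, repair, cell cycle and DNA sensing, each panel with its own y axis from 0; T1 and T2 (red) are the treated libraries and U1 and U2 (blue) the untreated libraries of experiments 1 and 2. CHEK2, RFC4, LIG1, FANCD2 and CCNA2 are lower in both treated libraries, CDKN1A and E2F7 are higher, and SETD2 and WEE1 differ little.

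Genes that build the replication machinery were mostly lower in treated cells. Of 32 measured members 16 (50%) were lower and 1 was higher, against 15% lower among all genes at a mean of 7 or more, and 26 of 32 lay below 0 with a median of -0.46. With the experiment as a block 19 were lower and 3 higher. RFC4, a subunit of the clamp loader, had 631 and 650 normalised reads in treated cells, against 1482 and 1605 in untreated cells, and fell by 1.25 (SE 0.08, limma adjusted p 0.0232). LIG1, the ligase that joins Okazaki fragments, fell by 1.23 (SE 0.11). The sliding clamp PCNA had 2866 and 2670 in treated cells, against 5127 and 5622 in untreated cells, and fell by 0.95. The helicase subunit MCM6 fell by the same 0.95 and MCM3 by 0.86, while MCM2 had 6687 and 6652 in treated cells, against 6177 and 6366 in untreated cells, a difference of 0.09 that did not pass. ORC6, a subunit of the origin recognition complex, was the 1 member that rose (0.79). The ribonucleotide reductase subunit gene RRM1 fell by 0.60, while RRM2 differed by -0.08 without passing.

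Genes of homologous recombination and the Fanconi anaemia pathway, which repair broken and cross-linked DNA, moved down where they moved. Of 21 measured members 7 (33.3%) were lower and 0 higher, against 15% lower among all genes at a mean of 7 or more. The median was -0.52, and 12 were lower and 0 higher with the experiment as a block. FANCD2, the protein that the Fanconi core complex ubiquitinates, had 599 and 773 normalised reads in treated cells, against 1852 and 1964 in untreated cells, and fell by 1.47 (SE 0.15, limma adjusted p 0.0254). The helicase gene BRIP1 fell by 1.19, and BRCA1, with 1302 and 1811 in treated cells, against 3117 and 3593 in untreated cells, by 1.12. BRCA2 did not pass, at 537 and 809 in treated cells, against 571 and 618 in untreated cells.

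In the E2F and cyclin list more members fell than rose. Among its 21 measured members 7 (33.3%) were lower and 2 (9.52%) higher, or 11 and 3 with the experiment as a block, with a median of -0.47. The shares of all genes at a mean of 7 or more were 15% lower and 15.5% higher. CCNA2, the cyclin of S phase and G2, had 1077 and 986 normalised reads in treated cells, against 3312 and 3108 in untreated cells, and fell by 1.63 (SE 0.08, limma adjusted p 0.0232). E2F2, an activating E2F factor, fell by 1.76, the CDK4/6 inhibitor gene CDKN2C by 1.87, and CDK1 by 0.72. E2F8, a repressive E2F factor, fell by 1.01. CDKN1A and E2F7 were the 2 that rose. CDKN1A, which encodes the CDK inhibitor p21, had 4419 and 5392 in treated cells, against 1067 and 960 in untreated cells, and rose by 2.26 (SE 0.13). E2F7, which is repressive like E2F8, had 3300 and 5488 in treated cells, against 1098 and 1293 in untreated cells, and rose by 1.83 (SE 0.29).

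Mitotic genes did not move as a block. Of 26 measured members 4 (15.4%) were higher and 7 (26.9%) lower (8 and 8 with the experiment as a block), and the median was -0.04. The shares of all genes at a mean of 7 or more were 15.5% and 15%. KIF2C, a kinesin that depolymerises microtubules at centromeres, had 5973 and 6875 normalised reads in treated cells, against 3073 and 2900 in untreated cells, and rose by 1.10 (SE 0.10). The kinase gene AURKA rose by 0.82 and the proliferation marker MKI67 by 0.35. ANLN, the cytokinesis scaffold anillin, had 6005 and 5732 in treated cells, against 11878 and 11278 in untreated cells, and fell by 0.98 (SE 0.06). The spindle kinesin gene KIF11 fell by 0.91 and the checkpoint kinase gene BUB1 by 0.84. CCNB1 and PLK1, which drive entry into mitosis, differed by -0.16 and 0.17 and did not pass.

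Genes known as p53 targets were a mixed set. Of 24 measured members 8 were higher (33.3%, against 15.5% of all genes at a mean of 7 or more) and 3 lower. GADD45A, a growth arrest gene that other stress pathways also drive, had 11559 and 12789 normalised reads in treated cells, against 730 and 634 in untreated cells, a 17.9-fold difference in mean (log2 difference 4.14 ± 0.11, SE, limma adjusted p 0.0232). CDKN1A rose by 2.26, as above, and the stress kinase gene PLK3 by 2.0. MDM2, the ubiquitin ligase that p53 induces and that degrades it, had 727 and 966 in treated cells, against 875 and 861 in untreated cells (-0.05, limma adjusted p 0.858). RRM2B and CCNG1, both known as p53 targets, fell by 0.61 and 0.58.

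Among 22 measured regulators of apoptosis 7 (31.8%) were higher and 2 (9.09%) lower, with a median of 0.27. Of all genes at a mean of 7 or more 15.5% were higher and 15% lower. PMAIP1, the BH3-only protein NOXA, had 4353 and 4274 normalised reads in treated cells, against 1038 and 977 in untreated cells, and rose by 2.09 (SE 0.07, limma adjusted p 0.0232). BAK1, which forms pores in the mitochondrial membrane, rose by 1.23, and the death receptor gene TNFRSF10A by 1.12. Survival genes were also among those that rose. MCL1, which NOXA antagonises, rose by 0.99, and BCL2A1 had 5 and 12 reads in treated cells and 0 in both untreated libraries, a rise of 1.74. TNFSF10, the death ligand TRAIL, had 916 and 767 normalised reads in treated cells, against 3196 and 3409 in untreated cells, and fell by 1.96 (SE 0.12). BCL2 fell by 1.0.

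PPP1R15A had the largest difference among stress response genes, and its product GADD34 brings a phosphatase to eIF2 alpha and so lets translation resume. It had 16294 and 18329 normalised reads in treated cells, against 742 and 652 in untreated cells, a 24.8-fold difference in mean (log2 difference 4.61 ± 0.11, SE, limma adjusted p 0.0232). The untreated libraries lay far below both treated ones. Of 24 measured genes of the integrated stress and unfolded protein responses 11 (45.8%) were higher and 5 (20.8%) lower, with a median of 0.41. Of all genes at a mean of 7 or more 15.5% were higher and 15% lower, so the lower share was not far from theirs.

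DDIT3, the transcription factor CHOP, had 1465 and 1670 normalised reads in treated cells, against 299 and 303 in untreated cells, and rose by 2.33 (SE 0.10). ERN1, the endoplasmic reticulum sensor IRE1, rose by 2.15 (SE 0.15), and XBP1, the factor whose mRNA IRE1 splices, by 1.24. SLC3A2, the heavy chain of several amino acid transporters, had 20605 and 20587 in treated cells, against 5398 and 5305 in untreated cells, and rose by 1.94 (SE 0.05). ATF4, the central transcription factor of the response, rose by 0.76, with 11137 and 11187 in treated cells, against 6712 and 6465 in untreated cells. Genes that ATF4 is known to drive did not all follow it. The asparagine synthetase gene ASNS had 2115 and 1994 in treated cells, against 3276 and 3566 in untreated cells, and fell by 0.73. The serine synthesis gene PSAT1 fell by 0.78, DDIT4, which restrains mTORC1, by 0.96 and the cystine transporter gene SLC7A11 by 1.27. Other members of the list rose with ATF4, among them DDIT3 and SLC3A2, as above, TRIB3 by 0.83 and SLC7A5 by 0.58. HSPA5, the chaperone BiP, had 31121 and 30252 in treated cells, against 24867 and 22307 in untreated cells, and did not pass (0.38, limma adjusted p 0.0569), but did with the experiment as a block (0.0241).

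Many immediate early genes and feedback regulators of MAP kinase signalling were higher in treated cells. Of 29 measured members 16 (55.2%) were higher and 0 lower, against 15.5% and 15% of all genes at a mean of 7 or more. The shares over all genes tested were 7.05% and 6.16%. The median of the list was 1.18 (0.08 over all genes tested). FOSB, a partner of JUN in the AP-1 factor, had 605 and 718 normalised reads in treated cells, against 35.9 and 37.5 in untreated cells, an 18-fold difference in mean (3.83 ± 0.13, SE, limma adjusted p 0.0232). HBEGF, a ligand of the EGF receptor, had 995 and 765 in treated cells, against 79.5 and 53.9 in untreated cells, and rose by 3.53 (SE 0.24). ATF3, a stress-induced AP-1 family member, had 1119 and 821 in treated cells, against 97.9 and 80.8 in untreated cells, and rose by 3.28 (SE 0.20).

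Several feedback inhibitors of the pathway rose. SPRY4, a Sprouty inhibitor of receptor signalling, rose by 2.85 (SE 0.33), and the phosphatase genes DUSP1, DUSP6, DUSP4 and DUSP5 by 2.20, 1.87, 1.54 and 1.40. The related inhibitors SPRY2 and SPRED1 differed by 1.18 and -0.06 and did not pass. FOS rose by 2.4, EGR1 by 1.39 and JUN by 1.08. MYC differed by 1.40, with 8699 and 6421 normalised reads in treated cells, against 3804 and 2093 in untreated cells. It did not pass (limma adjusted p 0.0866) but did with the experiment as a block (0.0121), and both libraries of experiment 2 were the lower of their group. JUND differed by -0.29 and did not pass.

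In the list of the NF-kB pathway and inflammatory cytokines 14 of 28 measured members (50%) were higher and 1 lower, with a median of 0.88. Among all genes tested 7.05% were higher and 6.16% lower, and at a mean of 7 or more 15.5% and 15%. With the experiment as a block 14 members were higher and 2 lower. Without the block, those higher were cytokines, the pathway genes NFKB2, RELA, RELB and TNFAIP3, and the adhesion molecule gene ICAM1. Other cytokines did not pass, namely IL1A, IL1B, TNF, CXCL1, CXCL10, CCL5 and CSF3, with differences between -0.14 and 0.89. CXCL8, the neutrophil chemokine interleukin-8, had 1105 and 3802 normalised reads in treated cells, against 53.3 and 24.1 in untreated cells, a 63.4-fold difference in mean (5.46 ± 0.73, SE, limma adjusted p 0.0325). The size differed between experiments, with a log2 difference of 4.13 in experiment 1 and 6.80 in experiment 2. CXCL2, another neutrophil chemokine, had 133 and 156 in treated cells, against 28.1 and 8.66 in untreated cells, and rose by 2.56. CSF2, the growth factor GM-CSF, had 36 and 60 reads in treated cells, against 3 and 4 reads in untreated cells, and rose by 2.42.

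Regulators on the NF-kB pathway itself were not uniform. TNFAIP3, the feedback inhibitor A20, had 1077 and 1602 normalised reads in treated cells, against 374 and 331 in untreated cells, and rose by 1.87. RELB and NFKB2, the subunits of the non-canonical pathway, rose by 1.45 and 1.19. NFKBIA, the inhibitor that canonical NF-kB induces, had 814 and 821 in treated cells, against 1014 and 970 in untreated cells (-0.27, limma adjusted p 0.0889). NFKBIZ, a nuclear cofactor, had 719 and 492 in treated cells, against 1663 and 1426 in untreated cells, and fell by 1.36. The adhesion molecule gene VCAM1 had 64.2 and 213 in treated cells, against 271 and 1126 in untreated cells. It differed by -2.13 and did not pass (limma adjusted p 0.241), but passed with the experiment as a block (0.0114), and both libraries of experiment 2 were the higher of their group.

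Several genes of the interleukin-6 family, whose ligands signal through the shared receptor chain gp130, were higher as well. Of the 13 measured members, 3 of which are also in the cytokine list, 6 (46.2%) were higher and 0 lower, with a median of 0.77. The shares of all genes at a mean of 7 or more were 15.5% and 15%. IL11 had 6562 and 10346 normalised reads in treated cells, against 272 and 183 in untreated cells, a 37.1-fold difference in mean (5.14 ± 0.32, SE, limma adjusted p 0.0232). IL6 had 306 and 317 in treated cells, against 57.2 and 47.2 in untreated cells, and rose by 2.37 (SE 0.14), and LIF rose by 1.59. The receptor chain gene IL6R had 1318 and 1314 in treated cells, against 256 and 209 in untreated cells, and rose by 2.45 (SE 0.13). SOCS3, the feedback inhibitor that STAT3 induces, rose by 1.05, while IL6ST, which encodes gp130, and STAT3 differed by 0.16 each and did not pass.

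**Figure D3:**
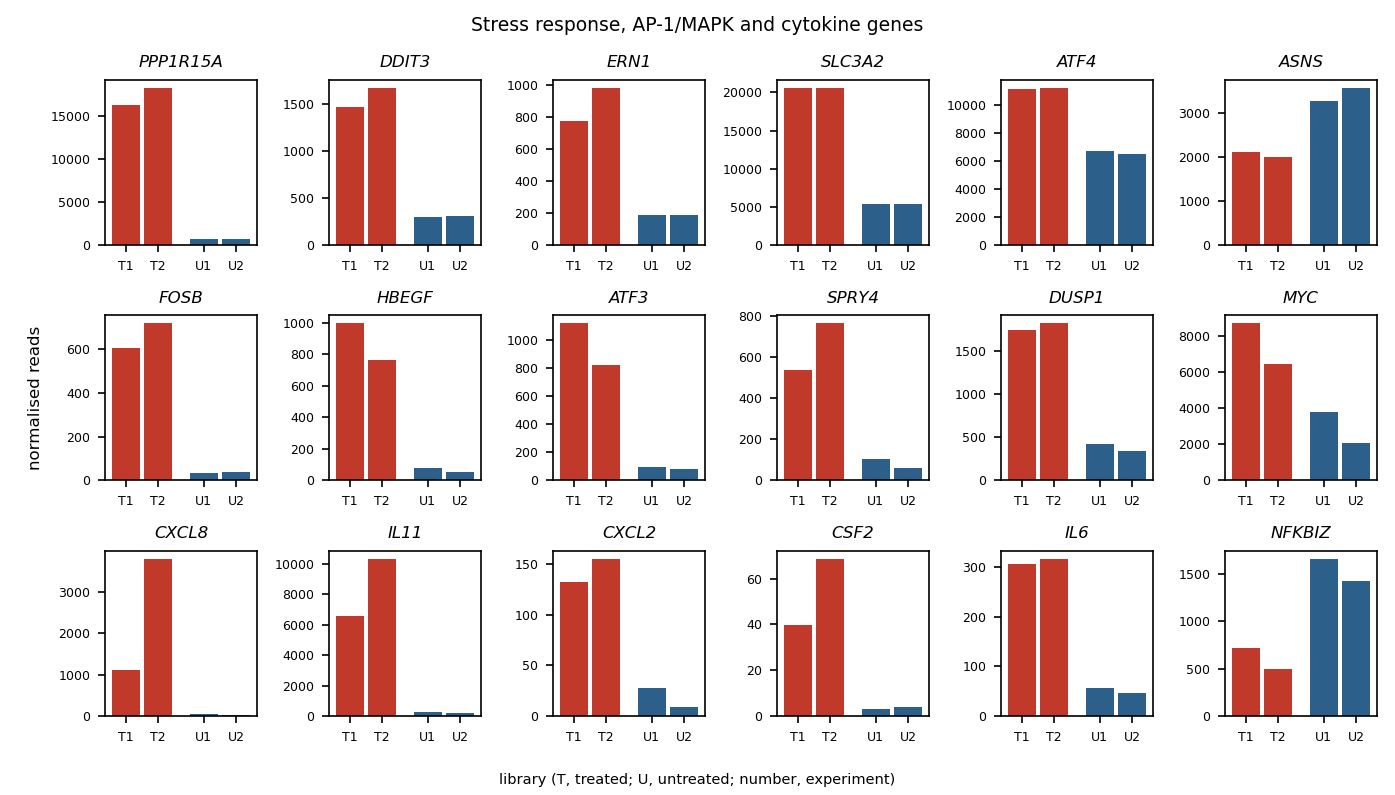
Bars give normalised reads per library for 18 stress response, AP-1 and MAP kinase, and cytokine genes, each panel with its own y axis from 0; T1 and T2 (red) are treated and U1 and U2 (blue) untreated libraries of experiments 1 and 2. PPP1R15A, DDIT3, FOSB, CXCL8 and IL11 are high in both treated libraries, whereas ASNS and NFKBIZ are lower in both.

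Genes of cytosolic DNA and RNA sensing did not move together. The list also holds genes other than sensors, such as RNASEH2A, ADAR and TBK1. Of 16 measured members 2 (12.5%) were higher and 1 (6.25%) lower (4 and 4 with the experiment as a block), with a median of -0.08. The shares of all genes at a mean of 7 or more were 15.5% and 15%. MB21D1, the symbol of cGAS in the table, had 970 and 1042 normalised reads in treated cells, against 604 and 491 in untreated cells, and rose by 0.87 (SE 0.13, limma adjusted p 0.0390). IFI16, another DNA sensor, had 3263 and 3616 in treated cells, against 1369 and 1411 in untreated cells, and rose by 1.30 (SE 0.08). TMEM173, the symbol of STING, was low, with 54 and 56 reads in treated cells, against 118 and 163 reads in untreated cells. Its difference of -1.0 did not pass (limma adjusted p 0.0565) but did with the experiment as a block (0.0277). MAVS, the adaptor of RNA sensing, had 2537 and 2576 normalised reads in treated cells, against 5735 and 5860 in untreated cells, and fell by 1.18 (SE 0.06). The downstream kinase gene TBK1 and the transcription factor gene IRF3 differed by -0.08 and 0.37 and did not pass, IRF3 passing with the experiment as a block (0.0445).

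Interferon itself was barely detected. IFNB1, interferon beta, had 4 and 1 reads in treated cells and 0 in both untreated libraries, and did not pass (limma adjusted p 0.106). Of 34 measured genes of the type I interferon response 1 was higher and 4 were lower (3 and 6 with the experiment as a block). These are 2.94% and 11.8%, against 7.05% and 6.16% of all genes tested, and 15.5% and 15% of those at a mean of 7 or more. The median of the list was 0.33, and its sign changed without the first treated library and when a minimum mean of 5 was set. OASL, an interferon-induced antiviral protein, had 73 and 47 reads in treated cells, against 14 and 9 reads in untreated cells, and rose by 1.91. The signalling factor STAT2 had 641 and 467 normalised reads in treated cells, against 1133 and 1088 in untreated cells, and fell by 1.01. The antiviral factor gene SAMD9 fell by 1.18 and PARP9, an ADP-ribosyltransferase family member, by 1.11. ISG15, the ubiquitin-like protein that is a usual readout of interferon, had 502 and 317 in treated cells, against 345 and 279 in untreated cells (0.35, limma adjusted p 0.452), and CXCL10 had at most 3 reads in any library.

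Without a block, genes of MHC class I presentation were higher about as often as other genes at a mean of 7 or more. Of 16 measured members 3 (18.8%) were higher and 0 lower, against 15.5% and 15% of those genes, with a median of 0.23. This depended on the fit. With the experiment as a block 7 were higher and 2 lower, against 9.31% and 9.71% of all genes tested. With a minimum mean of 5, 6 of 15 were higher and 2 lower, against 23.7% and 25.2% of all genes kept. TAP2, a subunit of the peptide transporter, had 1149 and 1347 normalised reads in treated cells, against 537 and 436 in untreated cells, and rose by 1.34 (SE 0.15, limma adjusted p 0.0271). The non-classical molecule HLA-E rose by 1.06 and the light chain B2M by 0.38. The classical molecule HLA-B had 3945 and 5295 in treated cells, against 2283 and 3283 in untreated cells. Its difference of 0.74 did not pass (limma adjusted p 0.150), but did with the experiment as a block (0.0126). Reads of these closely related genes may be shared between them, which the sources used here do not let one judge.

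Several histone genes of the replication-dependent clusters were higher. Of 19 measured members of the histone list 7 (36.8%), all of the clusters, were higher and 0 lower. Among all genes tested 7.05% were higher and 6.16% lower, and at a mean of 7 or more 15.5% and 15%. The median of the list was 1.41, the highest of the 31 lists. The list also holds H1F0, a linker histone gene outside the clusters, which differed by 2.54 and did not pass. HIST1H2AC had 1313 and 982 normalised reads in treated cells, against 55.2 and 82.8 in untreated cells, a 16.6-fold difference in mean (3.87 ± 0.25, SE, limma adjusted p 0.0232). The linker histone gene HIST1H1C had 1434 and 1014 in treated cells, against 158 and 146 in untreated cells, and rose by 2.90 (SE 0.20). HIST1H2BJ rose by 3.17 and HIST1H4H by 3.36. HIST2H4A had 83 and 87 reads in treated cells, against 0 and 1 in untreated cells, but it has a near-identical copy, so the source of its reads is uncertain. Most mRNAs of these clusters end without a poly(A) tail, and whether the libraries were made from poly(A) RNA is not stated, so what part of these transcripts was counted is unknown.

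Cytosolic ribosomal protein genes shifted upward together by a small amount. Of 35 measured members 23 (65.7%) were higher and 0 lower. Among all genes 19.2% were higher at a mean of 10 or more, and 24.9% at 13 or more. The treated libraries of all 35 lay above their untreated libraries. Of all 29353 genes tested, 15384 had groups that did not overlap, in either direction. The median of the 35 was 0.40, with a range of 0.23 to 0.77. Over all genes the median was 0.05 at a mean of 10 or more and 0.17 at 13 or more. RPL18 had 23194 and 21564 normalised reads in treated cells, against 13632 and 12692 in untreated cells, and rose by 0.77 (SE 0.07, limma adjusted p 0.0246). RPS9 rose by 0.73 (SE 0.05) and RPL8 by 0.56. Values are scaled to each library, so such a shift is relative to the other transcripts. The 28 nuclear genes of oxidative phosphorylation had 3 higher and 1 lower (6 and 1 with the experiment as a block), with a median of 0.15. CYCS, cytochrome c, had 10053 and 9409 in treated cells, against 4778 and 3724 in untreated cells, and rose by 1.20.

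Transcripts of the mitochondrial genome showed no difference larger than the spread within the groups. Limma called 0 of 15, with 0 at an unadjusted p under 0.05, voom on the recovered reads called 0 as well, and in each of the 15 the groups overlapped. MT-RNR2, the large ribosomal RNA, had 118523 and 77197 normalised reads in treated cells, against 79919 and 71130 in untreated cells (0.34 ± 0.24, SE, limma adjusted p 0.452). MT-CO1 had 68625 and 39838 in treated cells, against 54323 and 41744 in untreated cells. The first treated library was the highest for both.

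Most cholesterol synthesis and uptake genes had lower values in treated cells, and few passed. Of 25 measured members 23 lay below 0, with a median of -0.72 (-0.01 over all genes whose mean reached 7). Limma called 6 (24%) lower and 1 higher, against 15% and 15.5% of those genes. With the experiment as a block 14 were lower and 1 higher. The sterol carrier gene STARD4 had 319 and 302 normalised reads in treated cells, against 968 and 721 in untreated cells, and fell by 1.40 (SE 0.17, limma adjusted p 0.0296). HMGCS1, an early enzyme of the pathway, had 1572 and 1359 in treated cells, against 4641 and 3104 in untreated cells, and fell by 1.37. SREBF1, a transcription factor of lipid synthesis, fell by 1.11. MYLIP, a ubiquitin ligase, was the 1 member that rose, by 1.04.

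Several markers of the renal epithelium were among the larger falls. Of 23 measured members 8 (34.8%) were lower and 2 higher, against 6.16% and 7.05% of all genes tested. At a mean of 7 or more those shares were 15% and 15.5%. Of the 23 members 12 lay below 0 and 11 above it, with a median of -0.20. Only 14 of them reached a mean of 5, and the median over these was -1.04. CDH6, the kidney cadherin, had 831 and 537 normalised reads in treated cells, against 6058 and 4210 in untreated cells, and fell by 2.90 (SE 0.30, limma adjusted p 0.0255). PAX2, which acts with PAX8 in kidney development, had 182 and 169 in treated cells, against 570 and 755 in untreated cells, and fell by 1.84. CDH16, another kidney cadherin, fell by 1.79 and HAVCR1, the tubular injury marker KIM-1, by 1.32.

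PAX8 itself differed by -0.23 and did not pass (limma adjusted p 0.335), so the lineage factors did not fall as 1 group. The 2 members that were higher, ALPL and HNF4A, both had 0 reads in untreated cells and at most 10 in a treated library, and HNF4A lost its call with the experiment as a block (adjusted p 0.0575). RNA was taken from whole cultures, so fewer cells that express a gene and less of its RNA per cell cannot be told apart.

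Mesenchymal and matrix genes were mixed. Of 29 measured members 6 (20.7%) were higher and 1 (3.45%) lower, or 8 and 6 with the experiment as a block. The shares of all genes at a mean of 7 or more were 15.5% and 15%. The sign of the list median (0.32) changed when a minimum mean of 5 was set. SNAI2, the transcription factor Slug, had 1174 and 1308 normalised reads in treated cells, against 172 and 260 in untreated cells, and rose by 2.49 (SE 0.23, limma adjusted p 0.0245). The collagenase gene MMP1 rose by 1.67, and MMP3, stromelysin, had 43 and 13 reads in treated cells and 0 in both untreated libraries. FN1, fibronectin, had 120461 and 148957 normalised reads in treated cells, against 273852 and 269218 in untreated cells, and fell by 1.02 (SE 0.12). Vimentin differed by -0.29 (limma adjusted p 0.0918, or 0.0467 with the experiment as a block).

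Of 18 measured keratins 3 (16.7%) were higher and 1 (5.56%) lower. Among all genes tested 7.05% were higher and 6.16% lower, and at a mean of 7 or more 15.5% and 15%. KRT19, a keratin of simple epithelia, had 2029 and 2316 normalised reads in treated cells, against 5430 and 6250 in untreated cells, and fell by 1.42 (SE 0.12, limma adjusted p 0.0232). The hair keratins KRT34 and KRT81 rose, KRT34 with 58 and 35 reads in treated cells, against 1 and 3 reads in untreated cells, and KRT81 by 1.13. KRT80 rose by 0.71. KRT8 and KRT18, the main pair of simple epithelia, differed by -0.16 and 0.50 and did not pass.

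The hypoxia list and the NRF2 list held single genes that moved rather than a common direction. Of all genes at a mean of 7 or more 15.5% were higher and 15% lower. Hypoxia and HIF targets had 4 members (16.7%) higher and 2 (8.33%) lower of 24, with a median of -0.06. Among them the lipase inhibitor gene ANGPTL4 rose by 1.93, the peptide hormone gene ADM by 1.47 and VEGFA, with 8394 and 11996 normalised reads in treated cells, against 4616 and 4544 in untreated cells, by 1.13. CA12, a carbonic anhydrase that is also in the renal list, fell by 1.32. The list of NRF2 targets and metallothioneins had 1 higher and 3 lower of 16 (3 and 3 with the experiment as a block). OSGIN1 rose by 1.8, whereas AKR1B10 fell by 1.51 and NQO1, a classical NRF2 target, by 0.70.

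HMOX1, heme oxygenase, had 9245 and 4701 normalised reads in treated cells, against 1820 and 1080 in untreated cells. Its difference of 2.22 did not pass (limma adjusted p 0.0615), but passed with the experiment as a block (0.0114). Heat shock genes had 1 higher and 0 lower of 14 (2 and 7 with the experiment as a block), with a median of -0.32. Of the 14, 9 lay below 0. The shares over all genes tested were 7.05% higher and 6.16% lower, or 9.31% and 9.71% with the block. HSF1, the transcription factor of that response, rose by 0.73. Its target gene DNAJB1 differed by -0.32 and did not pass, and HSPA8, the constitutive chaperone, differed by -0.51 and passed with the experiment as a block (limma adjusted p 0.0142).

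Lysosome and autophagy genes had 5 (20.8%) higher and 7 (29.2%) lower of 24, with a median of 0.00. The shares of all genes at a mean of 7 or more were 15.5% and 15%. MAP1LC3B, the autophagosome protein LC3B, had 5429 and 5493 normalised reads in treated cells, against 1956 and 1900 in untreated cells, and rose by 1.5 (SE 0.06, limma adjusted p 0.0232). TFE3, a transcription factor of lysosomal genes, rose by 0.97. The autophagy-initiating kinase gene ULK1 had 367 and 335 in treated cells, against 784 and 808 in untreated cells, and fell by 1.16, and WIPI1, which acts early in autophagosome formation, fell by 0.90.

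**Figure D4:**
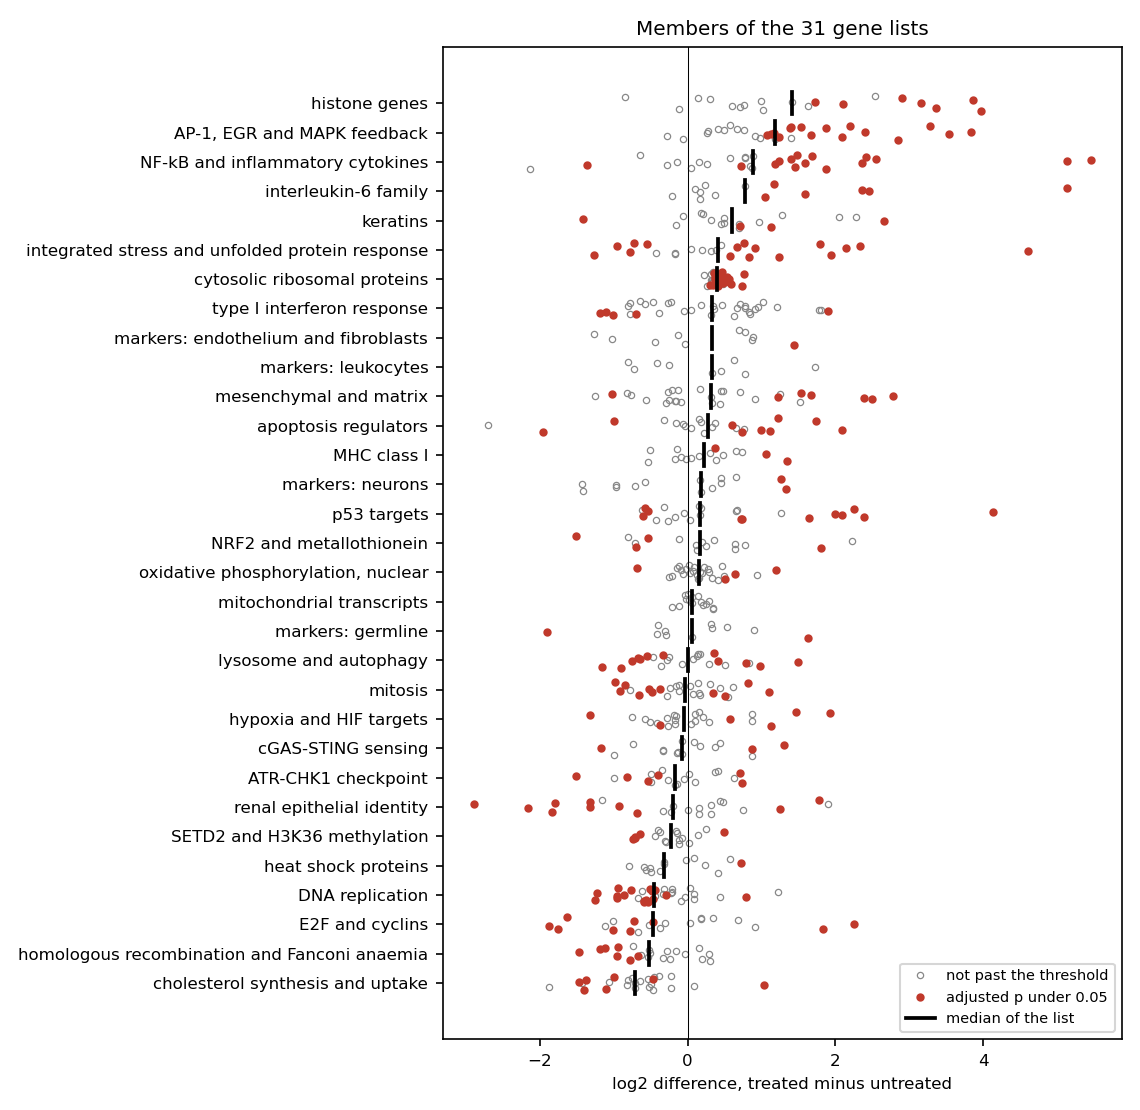
Each point is a measured member of 1 of the 31 gene lists, placed by its log2 difference (treated minus untreated) on the x axis, with filled red points at an adjusted p under 0.05 in either direction and open points not past it; the black bar is the median of the list. Lists run from the histone genes (median 1.41) at the top to cholesterol synthesis and uptake (median -0.72) at the bottom.

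Beyond the lists, the 15 largest rises among genes whose higher group mean reached 7 included several with very low levels in untreated cells. DHRS2, a short-chain dehydrogenase, had 405 and 419 reads in treated cells, against 3 and 2 reads in untreated cells (log2 difference 5.49 ± 0.15, SE, limma adjusted p 0.0232). ALOXE3, a lipoxygenase of the skin barrier, had 265 and 673 reads in treated cells, against 3 and 4 reads in untreated cells. DNAH17, a dynein heavy chain of cilia and sperm tails, had 267 and 788 reads in treated cells, against 11 and 25 reads in untreated cells. DHRS2 and ALOXE3 were thus near the floor without the inhibitor, and the variance-stabilised scale understates such differences.

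The remaining members of that group were well expressed after treatment. INHBA, a subunit of activin, had 7537 and 12044 normalised reads in treated cells, against 814 and 677 in untreated cells, a 13.1-fold difference in mean. GEM, a small GTPase that restrains calcium channels, had 5546 and 5572 in treated cells, against 365 and 399 in untreated cells. ANKRD1, an ankyrin repeat protein and a known target of YAP, had 1503 and 1559 in treated cells, against 84.3 and 101 in untreated cells. KRTAP2-3, a hair keratin-associated protein with close paralogs, had 755 and 776 in treated cells, against 34.9 and 43.3 in untreated cells. These rises were 3.66, 3.83, 3.90 and 3.98 on the log2 scale (limma adjusted p 0.0232 each).

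Transport and adhesion genes of kidney tubules stood among the 15 largest falls. CD24, a surface glycoprotein, had 9076 and 5560 normalised reads in treated cells, against 50841 and 46723 in untreated cells, and fell by 2.78 (SE 0.27, limma adjusted p 0.0246). CLDN2, the claudin of proximal tubule junctions, had 426 and 186 in treated cells, against 3112 and 1867 in untreated cells, and fell by 3.04. PDZK1, a scaffold for transporters of the proximal tubule, had 107 and 58.3 in treated cells, against 773 and 708 in untreated cells, and fell by 3.06. KCNJ16, a potassium channel of kidney and other epithelia, fell by 3.19, and SLCO4C1, an organic anion transporter of the kidney, by 3.0. The group was collected for the size of the change, so its tubular members are named as a description and were not tested as a set.

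The others of the 15 had varied roles. TMEM37 had 15.5 and 9.15 normalised reads in treated cells, against 205 and 256 in untreated cells, and fell by 3.47, the largest fall of the 15. The kelch protein gene KLHL14 fell by 3.29 and the semaphorin gene SEMA5B by 3.25. The metalloprotease gene ADAMTS15 and the sulfotransferase gene CHST9 had log2 differences of -2.81 and -2.79. The imprinted noncoding gene PEG13 fell by 2.75, and the noncoding or unnamed transcripts LINC01559, RP11-54O7.3 and RP1-60O19.1 had log2 differences of -2.88, -3.07 and -3.33.

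**Figure D5:**
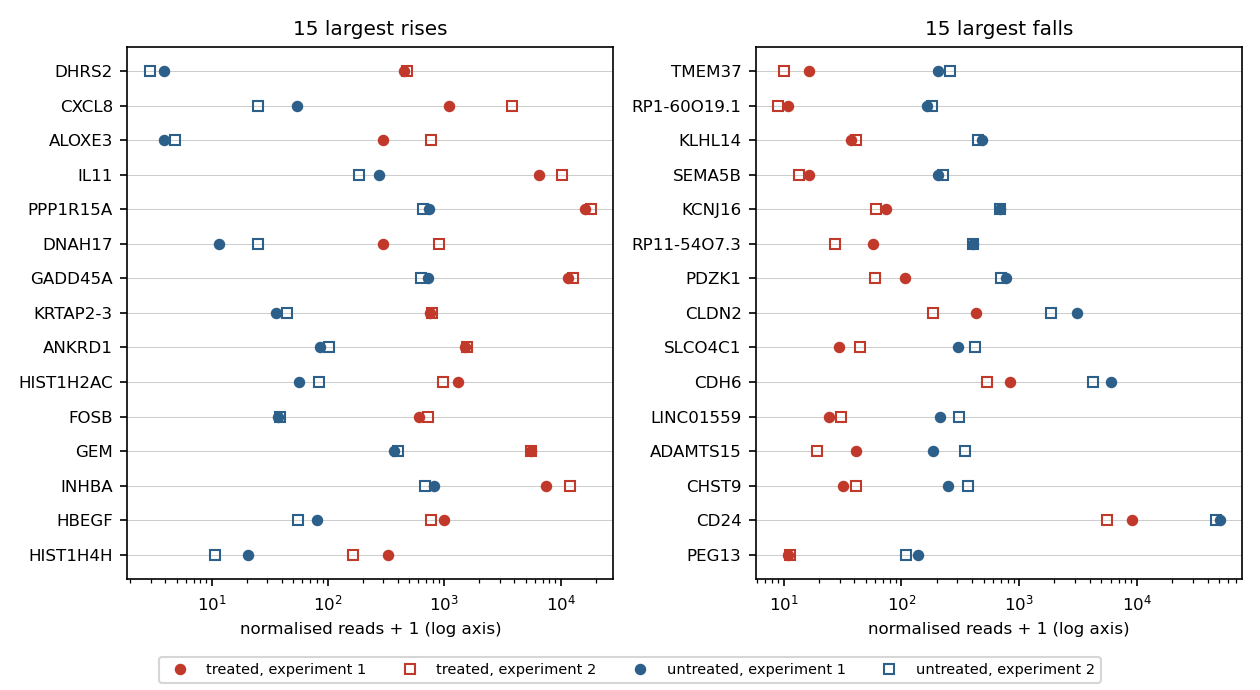
Normalised reads plus 1 per library, on a log axis, for the 15 genes with the largest rise (left panel) and the 15 with the largest fall (right panel) among genes past the threshold; red marks treated and blue untreated libraries, with filled circles for experiment 1 and open squares for experiment 2. In each of the 30 genes both treated libraries lie on 1 side of both untreated libraries, which their selection by threshold and size makes likely.

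More rows went from 0 reads to some reads than the reverse, and most of them held few reads. In 1122 rows both untreated libraries had 0 reads while both treated libraries had reads, and 255 of these passed. In 452 rows both treated libraries had 0 reads while both untreated libraries had reads, and 36 of these passed. Among all genes tested 7.05% were higher and 6.16% lower. The rows were chosen by the reads that the test uses, which fixed their direction, so the numbers that passed add no support. Only 14 of the 1122 rows had at least 10 reads in both treated libraries. Only 2 of the 452 rows had at least 10 reads in both untreated libraries. A count of 0 allows up to 3 reads in a library. DNAH3, an axonemal dynein heavy chain, had 37 and 38 reads in treated cells and 0 in both untreated libraries, at least 14.6-fold higher in mean against the floor of 3 reads per library. MMP3 was at least 10.8-fold higher by the same rule, the noncoding LINC01447 at least 9.49-fold, the receptor kinase gene ROS1 at least 8.59-fold and the kinase gene CAMK1G at least 8.4-fold. CCR4, a chemokine receptor, had 24 and 17 reads in treated cells and was at least 7.94-fold higher.

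Not all of these passed. The protease inhibitor gene SPINK1, with 10 and 31 reads in treated cells, and LINC01215, with 8 and 27, had limma adjusted p of 0.0511 and 0.0595, and both passed with the experiment as a block (0.0250 and 0.0302). On the other side PRR36, BTBD8, RP1-193H18.2, RP11-320N7.2, AC018755.16 and the phosphodiesterase gene PDE3A had at most 18 reads in an untreated library and 0 in both treated libraries, and were at least 2.57-fold to at least 3.71-fold lower. ARHGEF25 did not pass. CH507-513H4.4 had 1065 reads in the second untreated library and 0 in the other 3, so it reflects 1 library.

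Markers of cells that the culture should not hold stayed low. Their counts of calls stand beside 7.05% higher and 6.16% lower among all genes tested, or 9.31% and 9.71% with the experiment as a block. For the 14 listed leukocyte genes, 5 of which had 0 reads throughout, the summed level was 176 and 257 normalised reads in treated cells and 178 and 165 in untreated cells, and limma called 0 of 9 measured members, with 4 at an unadjusted p under 0.05. CD3E, CD3D, CD8A and HBB were among those at 0, and PTPRC, the pan-leukocyte marker CD45, had at most 2 reads in a library. CSF1R had 91 and 127 reads in treated cells, against 152 and 151 reads in untreated cells. ITGAM had 46 and 92 reads in treated cells, against 20 and 13 reads in untreated cells (1.73, limma adjusted p 0.0766), and passed in voom (0.0145). For the 13 endothelial and fibroblast genes, of which EMCN, DCN and FAP were at 0, the sum was 184 and 271 in treated cells and 207 and 495 in untreated cells, and VWF, with 7 and 4 reads in treated cells and 0 in untreated cells, was the 1 that passed (1 more was lower with the experiment as a block). The 15 germline genes, of which CTAG1B, DAZL, DDX4 and BRDT were at 0, summed to 1257 and 1190 in treated cells and 1567 and 1455 in untreated cells. PRAME, a germline antigen that many tumours express, fell by 1.90, and TEX14, with 7 reads in each treated library and 0 in untreated cells, rose by 1.63. They were the 2 of 11 measured that passed, and 1 more was higher with the experiment as a block.

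Neuronal markers summed to 5996 and 5079 normalised reads in treated cells and 10219 and 9104 in untreated cells. Of 14 measured members 2 were higher and 0 lower (1 and 4 with the experiment as a block). For all genes tested the shares were 7.05% higher and 6.16% lower, or 9.31% and 9.71% with the block. NEFL, a neurofilament gene, made up most of the sum, with 4966 and 3781 in treated cells, against 9231 and 7777 in untreated cells (-0.97, limma adjusted p 0.0513, or 0.0114 with the experiment as a block). ELAVL4 was at 0. SYP, synaptophysin, had 41 and 51 reads in treated cells, against 17 and 14 reads in untreated cells, and rose by 1.33. ELAVL3, with 4 reads in each treated library and 0 in untreated cells, lost its call with the experiment as a block (adjusted p 0.0515). The part of these markers in the results above was not tested.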

How the data were processed

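RNA-seq libraries of 786-O cells were compared, 2 treated and 2 untreated. The authors deposited log2 values, variance-stabilised per the file headers, with 1 row per gene symbol (56269 rows). The authors list TopHat, HTSeq, DESeq2 and FastQC, per the submitters' processing notes, with no versions. Nothing states the library selection, the strandedness, the annotation or how shared reads were treated, so overlapping, antisense and near-identical genes are uncertain. Mouse tables were not used here.

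All columns share a floor of 2.47, the value of 0 reads. From the deposited log2 values whole reads were recovered by inverting the transform with that floor. The 40 lowest steps left a root mean square residual of 2.94e-10, and 100% of values were whole within 0.1. Normalised reads are these reads divided by the size factors that the steps imply. They are not scaled by gene length, so levels are not compared between genes.

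The deposited values were fitted in R 4.3.3 with limma 3.58.1 (linear model of group, empirical Bayes with a variance trend, two-sided, Benjamini-Hochberg threshold 0.05) over the 29353 rows with reads. The other 26916 rows had 0 reads in all 4 libraries. The fit was tested on simulated data: its estimates lay close to the differences set, and over all rows it called most of the larger changes when many genes were changed and none when few were. The simulated counts were drawn independently, with a common dispersion and no experiment effect, and genes near the floor were left unchanged. The simulation therefore does not show how the fit behaves for changes in such genes or with paired libraries. Differences are treated minus untreated, with standard errors (SE) on the log2 scale. Intervals and floors of 3 reads cover counting error only.

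The design text ties the libraries to 2 separate experiments, so equal numbers pair the samples. Deviations of same-numbered libraries from their group means correlated at 0.158 over all tested genes, and at 0.511 over 12731 genes with a minimum mean of 5. Replicates of a group differed beyond counting noise (chi-square per degree of freedom 14.9 treated, 14.7 untreated). Whether they are separate cultures is otherwise not stated.

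The comparison, the 31 gene lists and the alternatives were chosen with earlier results of these data known. Genes were named by rule: the 15 largest rises and 15 largest falls among genes past the threshold whose higher group mean was at least 7 and whose sign was the same in both experiments, up to 4 members per list by size of difference (or the 2 highest by mean where none passed), the drug target and its pathway, and up to 8 genes with 0 reads in 1 group. Some genes that the rule names are not reported here. Other members named were chosen after their values were seen. Alternatives were the experiment as a block, a minimum mean of 5, quantile normalisation, median centring, no variance trend, voom on recovered reads (at least 10 reads in 2 libraries), log2 of normalised reads plus 1, and leaving out each library. No reference sequence of the human genome was used here.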

Additional observations from a re-analysis of the deposited data

How the results depend on the processing

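Each gene that passed kept its direction in every alternative that tested it (the minimum mean and voom left some out), but the number that passed varied. The calls numbered 2069 higher and 1809 lower as reported. The lower calls in all were 2850 with the replicate block, 3210 with a minimum mean of 5, 2864 with libraries centred on their median and 3625 with voom. Of the 3878 calls in both directions, these called 3649, 3452, 3735 and 3590 again. Without a variance trend limma called 0 higher and 0 lower (8654 genes at an unadjusted p under 0.05). The block with the minimum mean gave 3831 and 4190, and the block with voom 3871 and 4974, both chosen after the data were seen. With 1 library left out, the higher calls ranged from 0 to 3820 and the lower ones from 0 to 751, and the lone library was then assumed to vary like the other group. The cause of these changes was not tested, beyond the fewer libraries or genes in the fit.

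Of the 133 genes chosen by the naming rule that passed, 132 did so with the replicate block, 133 with median centring, 53 without the first treated library, 52 without the second and 0 without either untreated library or without a trend, with no change of direction. MT-CO1 (0.13), which had not passed, ranged from -0.26 without the first treated library to 0.53 without the second, and was -0.06 without the second untreated library. By list, the lower members of cholesterol synthesis and uptake numbered 6 of 25 as reported, 17 of 23 with the minimum mean and 18 of 23 with voom. Those of homologous recombination numbered 7, 12 and 14 of 21. The lower share over all genes in the same fits also grew, from 6.16% to 25.2% and 24.8%. The sign of the median changed in 6 of 31 lists with the minimum mean, 3 with quantile normalisation, 1 with median centring, 5 with voom and 0 with the replicate block. Genes with few reads are limited by counting, and 2 libraries a group by the spread.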

Other observations

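Families defined by symbol were chosen after the values were seen and are given as values without a test of the family. Among all genes at a mean of 7 or more 15.5% were higher and 15% lower. Of 34 measured genes whose symbols begin with UTP, RRP, NOP or NOL, most of which assemble ribosomal subunits in the nucleolus, 19 (55.9%) were higher and 0 lower in treated cells, with a median of 0.73. RRP12 had 11923 and 14043 normalised reads in treated cells, against 3112 and 2242 in untreated cells, and rose by 2.29 (limma adjusted p 0.0239). Of 28 RNA polymerase subunit genes 11 (39.3%) were higher and 0 lower, among them POLR3A by 1.57 and POLR1E by 1.40, and of 48 translation initiation factor genes 21 (43.8%) were higher and 1 lower. Of 78 mitochondrial ribosomal protein genes 20 (25.6%) were higher and 1 lower. All rows of the large cytosolic subunit had 25 higher and 0 lower of 48, and those of the small subunit 17 and 0 of 33.

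Several host genes of small nucleolar RNAs were higher. Of 21 measured SNHG genes 10 (47.6%) were higher and 2 lower, with a median of 0.87. SNHG1 had 7586 and 7007 normalised reads in treated cells, against 1164 and 947 in untreated cells, and rose by 2.78, and GAS5, another such host, had 7654 and 8121 in treated cells, against 1320 and 1239 in untreated cells, and rose by 2.61 (limma adjusted p 0.0232 each). All 10 pregnancy-specific glycoprotein genes, which are near-identical paralogs, lay above 0, and 5 passed, PSG9 with 175 and 157 in treated cells, against 23.3 and 11.5 in untreated cells. Zinc finger genes with ZNF symbols had 116 (22.5%) higher and 23 (4.47%) lower of 515. Dual-specificity phosphatases had 11 (52.4%) higher and 2 (9.52%) lower of 21. The shares of all genes at a mean of 7 or more were 15.5% and 15%. Histone rows selected by symbol had 10 (16.1%) higher and 0 lower of 62, against 7.05% and 6.16% of all genes tested. Only 20 of these 62 rows reached a mean of 5.

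Of 20 semaphorin genes, which encode guidance cues, 8 (40%) were lower and 1 higher, with a median of -0.68. The shares of all genes at a mean of 7 or more were 15% lower and 15.5% higher. SEMA5A had 1528 and 1249 normalised reads in treated cells, against 5739 and 5726 in untreated cells, and fell by 2.04. Integrins and HOX genes were lower about as often as all genes at a mean of 7 or more. Of 31 integrin genes 6 (19.4%) were lower and 0 higher (9 and 2 with the experiment as a block), with a median of -0.14. ITGB6 fell by 2.65 and ITGB8 by 1.54. HOX genes had 6 (16.7%) lower and 1 higher of 36, and HOXA11 rose by 1.30 while HOXA10 fell by 1.31.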
